A study of Mus musculus with 24 samples.

Results

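The mitochondrial ribosomal proteins were examined here in mouse quadriceps, a large and mostly fast-fibred thigh muscle, through their mRNA levels. Members were the probe sets whose platform annotation gives 1 gene symbol made of Mrpl (large subunit) or Mrps (small subunit) and a number. They came to 64 of the 14771 probe sets with 1 symbol, of which 40 carry a large subunit name and 24 a small subunit name. The rule reads gene symbols alone. RefSeq lists 63 of the 64 as protein coding and 1, Mrpl27-ps, as a pseudogene, for which it was not tested whether the probes also read its parent gene. A further 9 probe sets name a mitochondrial ribosomal gene among several symbols and were kept apart.

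Male mice of the strain written C56BL/6J in the sample labels ate palm oil diets, and each of 24 mice was read on its own Affymetrix mouse genome array. The groups were high fat (45 kcal% fat) for 3 days, low fat (10 kcal% fat) for 3 days, high fat for 28 days and low fat for 28 days, with 6 mice each. All mice had first eaten the low fat diet for 3 weeks and were then assigned at random, per the labels. Mice were 12 weeks old at day 3 and 16 weeks old at day 28, so time on a diet and age cannot be told apart. The design asks how short and long exposure to a high fat diet differ in the muscle transcriptome.

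The mitochondrial ribosome translates the few proteins that mitochondrial DNA encodes, all of them subunits of the oxidative phosphorylation complexes. Its rRNAs come from mitochondrial DNA, whereas its proteins are all encoded in the nucleus, made in the cytosol and imported. Compared with its bacterial relatives it is rich in protein, and many of its proteins have no bacterial counterpart. In muscle it serves a tissue with a high and variable demand for oxidative phosphorylation. Nuclear respiratory factor 1 (NRF1) and ETS-type factors are known to bind the promoters of many nuclear genes for mitochondrial proteins.

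The promoters below belong to members on which the results turn: Mrpl12, Mrpl18 and Mrpl46, which rose on the high fat diet at day 3, and Mrps2, which fell at day 28. Each run is the 250 bases before the transcript start in RefSeq (GRCm38.p6), read 5′ to 3′ on the gene's strand, in lower case. Capitals mark a match on either strand to CCGGAAG (ETS), AAGATGG (YY1), GGGCGG (GC box), TCAAGGTCA (ERR) or the NRF1 palindrome with 1 of its central bases left free. Mrpl12 lies at chr11:120484387-120484636 (+), Mrpl18 at chr17:12916092-12916341 (-), Mrpl46 at chr7:78783090-78783339 (-) and Mrps2 at chr2:28467816-28468065 (+).
Mrpl12: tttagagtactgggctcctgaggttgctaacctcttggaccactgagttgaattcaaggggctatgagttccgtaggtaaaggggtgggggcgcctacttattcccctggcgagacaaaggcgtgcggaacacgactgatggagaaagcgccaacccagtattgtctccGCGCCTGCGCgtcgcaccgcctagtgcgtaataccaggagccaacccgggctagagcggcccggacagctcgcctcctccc
Mrpl18: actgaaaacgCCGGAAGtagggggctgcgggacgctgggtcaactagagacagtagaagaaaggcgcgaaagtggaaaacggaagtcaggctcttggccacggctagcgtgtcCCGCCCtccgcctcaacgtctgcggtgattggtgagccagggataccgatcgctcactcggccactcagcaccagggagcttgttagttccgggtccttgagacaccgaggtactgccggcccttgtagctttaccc
Mrpl46: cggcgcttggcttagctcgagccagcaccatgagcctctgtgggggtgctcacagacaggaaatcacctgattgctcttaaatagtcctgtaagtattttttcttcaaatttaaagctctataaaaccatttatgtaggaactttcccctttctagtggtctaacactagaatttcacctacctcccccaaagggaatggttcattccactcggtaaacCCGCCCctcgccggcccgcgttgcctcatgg
Mrps2: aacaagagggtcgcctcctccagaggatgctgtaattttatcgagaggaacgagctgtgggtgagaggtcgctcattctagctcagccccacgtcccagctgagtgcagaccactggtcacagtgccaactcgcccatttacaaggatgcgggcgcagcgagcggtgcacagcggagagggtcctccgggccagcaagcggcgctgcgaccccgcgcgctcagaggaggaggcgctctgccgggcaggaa
The Mrpl12 window held 1 NRF1 form, starting 81 bases before the transcript start. It matches only with the central base left free, a form added after a promoter had been read. The Mrpl18 window held an ETS form 240 bases and a GC box 137 bases before the start. The Mrpl46 window held a GC box at 31 bases, and the Mrps2 window held none of these letters.

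Values were the authors' GCRMA intensities, analysed as log2, and a gene was tested when its log2 intensity exceeded 4 on at least 6 of the 24 arrays. This kept 5793 of 14754 genes and 62 of the 64 members, 39 large and 23 small. Mrpl41, with a mean log2 intensity of 1.96, and Mrps25, at 3.11, did not pass, and Mrpl57 passed narrowly, at 3.96 and above 4 on 9 arrays. No value in the table was 0. Group means were fitted with limma over all 24 arrays. Calls rest on Benjamini-Hochberg adjusted p-values, taken over all tested genes, below 0.05. Changes are given on the log2 scale with the standard error (SE) of that fit, and levels as log2 intensity. A probe set's level depends on its own probes, so levels were compared between groups and never between genes. Members varied less between mice of a group than the typical gene, in a comparison not matched for intensity. Their median residual SD was 0.127 against 0.189 over all tested genes. Among the members this SD ran from 0.072 for Mrpl37 to 0.248 for Mrps5.

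The tissue carried defining markers of skeletal muscle on every array, among them Acta1, Ckm and the fast fibre gene Myh4. Of 6 such markers, 1 rose at day 3 and 1 at day 28. Other features also moved with diet. Over all tested genes 7.99% rose and 6.87% fell at day 3, and 5.35% rose and 7.18% fell at day 28. Of the slow fibre markers, 11 of 11 tested rose at day 3 and 9 of 11 at day 28, and their summed intensity ran from 5615 to 26000 in high fat day 3, 552.5 to 3234 in low fat day 3, 6087 to 11080 in high fat day 28 and 1318 to 3457 in low fat day 28. Adipocyte markers fell in 3 of 8 tested at day 3 and in 8 of 8 at day 28, and macrophage markers in 1 of 9 and 9 of 9. Endothelial markers rose in 6 of 8 at day 3 and in 1 of 8 at day 28. No value in the data was 0, so a marker above 0 is not thereby shown to be present. Some intensities were very low on single arrays, down to 3.45 for Cidea in low fat day 3 and 3.63 for Tnni1 in low fat day 28. Lep, Cd68, Cdh5 and Flt1 did not pass the filter. The high fat mice carried numbers 1751 to 1772 and the low fat mice 2010 to 2025, with a separate range for each group, so anything that goes with those ranges cannot be told apart from diet or day. The labels name no DNase step for low fat day 3 replicate 1.

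At day 3 of the high fat diet, 8 of the 62 tested members rose, beside 7.99% of all tested genes that rose and 14.9% that were called in either direction. No member fell, beside 6.87% of all genes. The share of members called in either direction was thus near the background. The direction was one-sided: 51 of 62 members (82.3%) had a change above 0, against 49.1% of all tested genes. The median change was 0.11 over the members and -0.00514 over all genes, and the quartiles of the members were 0.0627 and 0.174. At an unadjusted p under 0.05 there were 19 members, all of them higher, beside 15% of all genes that were higher at that threshold. In whole muscle, a different mix of cells and a different amount of RNA per cell cannot be told apart.

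**Figure D1:**
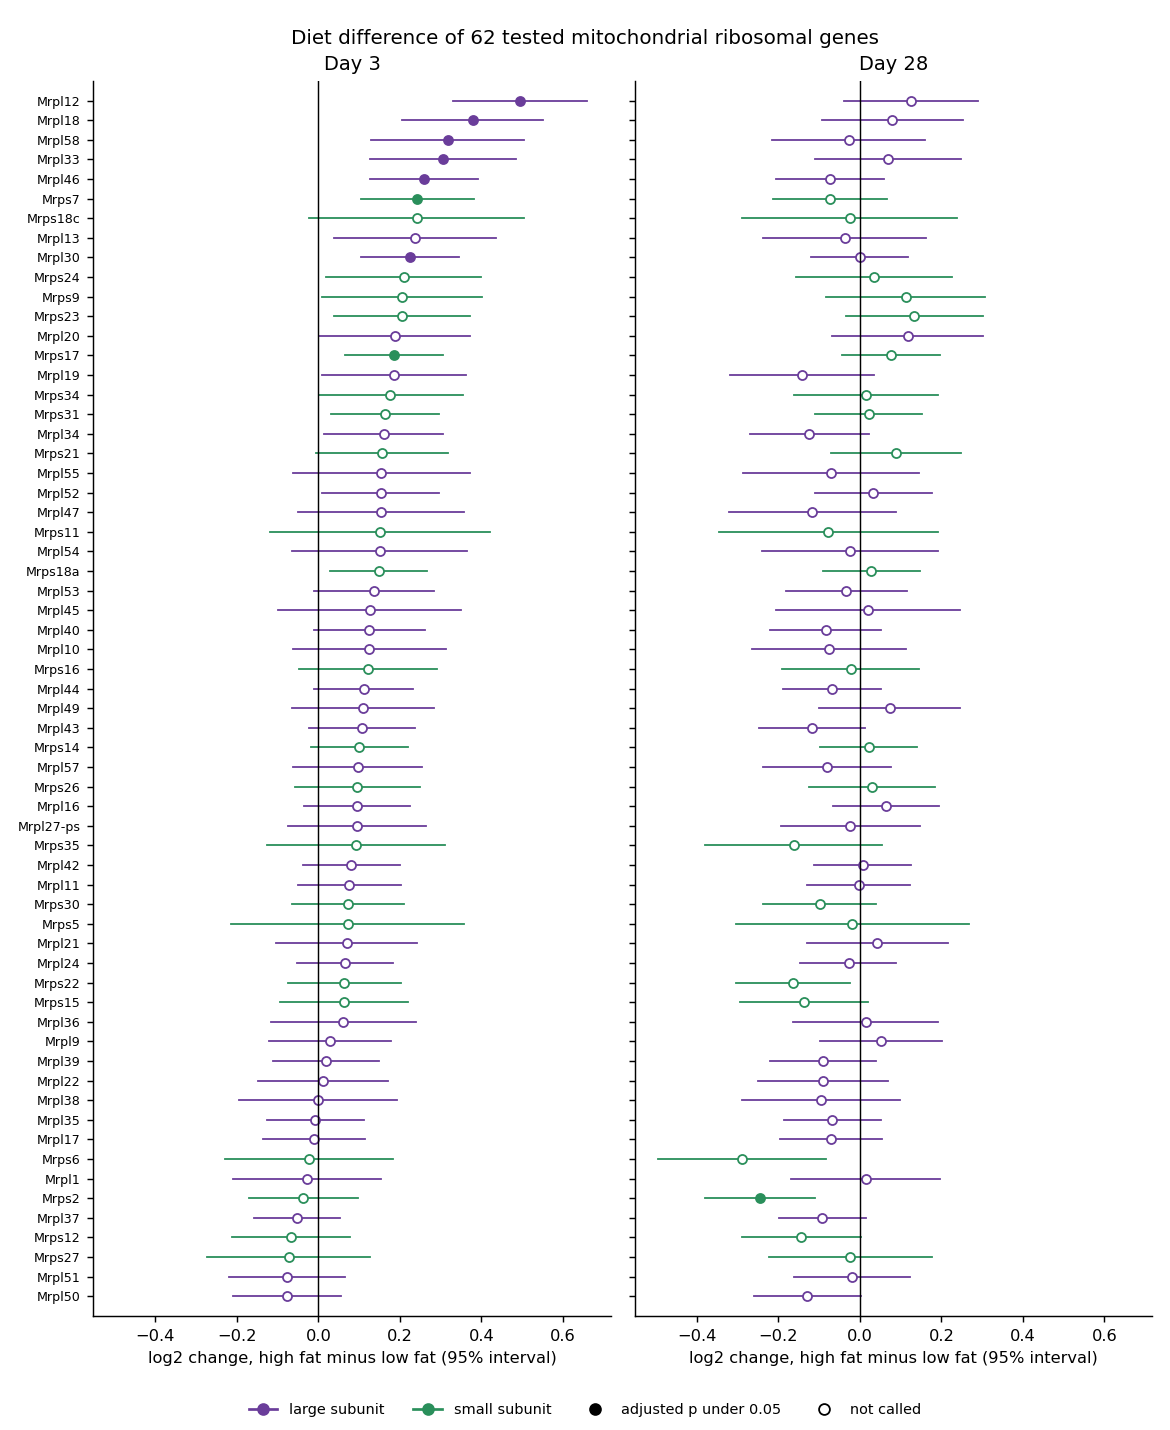
Log2 change (high fat minus low fat) of each of the 62 tested members at day 3 on the left and day 28 on the right, with its 95% interval, ordered by the change at day 3. Purple marks large and green small subunit names, and filled points are called (8 at day 3, all to the right of 0, and Mrps2 alone at day 28).

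The member that rose most was Mrpl12, which with Mrpl10 forms the stalk that brings translation factors to the ribosome, and whose human protein has been reported to bind the mitochondrial RNA polymerase. In high fat day 3 mice its log2 intensity was lowest at 9.11, with a median of 9.25 and a highest value of 9.54, against 8.59, 8.80 and 9.06 in low fat day 3 mice. Every high fat mouse lay above every low fat mouse. The means were 9.289 ± 0.169 and 8.794 ± 0.189 (SD, n = 6 each), a change of 0.495 ± 0.0795 (SE, 95% interval 0.331 to 0.66, 1.41-fold, limma adjusted p = 0.000237). The other stalk proteins did not follow at this threshold: Mrpl10 changed by 0.125 (adjusted p = 0.379) and Mrpl11, at the base of the stalk, by 0.0759 (adjusted p = 0.431).

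Mrpl18 and Mrpl46 belong to the central protuberance, the crown of the large subunit. Mrpl18 is the counterpart of the bacterial protein that holds 5S rRNA, and its lowest, median and highest log2 intensities were 9.20, 9.30 and 9.56 in high fat day 3 mice, against 8.59, 8.95 and 9.15 in low fat day 3 mice. The groups did not overlap, and the change was 0.379 ± 0.0837 (adjusted p = 0.00389). Mrpl46, a protein without a bacterial counterpart, had 7.24, 7.36 and 7.65 in high fat day 3 mice, against 7.03, 7.14 and 7.24 in low fat day 3 mice. Here 5 of the 6 high fat mice lay above the whole low fat group, and the change was 0.259 ± 0.0636 (adjusted p = 0.008).

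Mrpl58, formerly Ict1, is a member of the release factor family built into the large subunit, where it frees peptides from stalled ribosomes. Its log2 intensity was 8.02 at the lowest, 8.41 at the median and 8.60 at the highest in high fat day 3 mice, against 7.77, 8.02 and 8.31 in low fat day 3 mice, with overlap. The change was 0.317 ± 0.0907 (adjusted p = 0.0211). Mrpl33, a small protein with a bacterial counterpart, changed by 0.306 ± 0.0862 (adjusted p = 0.0196), and its groups overlapped at 10.16 to 10.54 in high fat and 9.76 to 10.19 in low fat mice. Mrpl30, also of bacterial type, separated the groups, with 11.02 to 11.19 in high fat against 10.71 to 10.98 in low fat mice and a change of 0.224 ± 0.0576 (adjusted p = 0.0106). Mrpl12, Mrpl18 and Mrpl30 were thus the 3 members whose diet groups did not overlap at day 3, all higher, beside 3.5% of all genes.

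Among the small subunit genes, Mrps7 and Mrps17 rose, both with bacterial counterparts that bind the small subunit rRNA early in assembly. Mrps7 had 8.44, 8.68 and 8.82 (lowest, median and highest log2 intensity) in high fat day 3 mice, against 8.29, 8.36 and 8.57 in low fat day 3 mice. The ranges overlapped, and the change was 0.243 ± 0.0673 (adjusted p = 0.0177). Mrps17 had 8.442, 8.521 and 8.699 in high fat day 3 mice, against 8.308, 8.336 and 8.443 in low fat day 3 mice, so that the lowest high fat mouse touched the top of the low fat range. Its change of 0.186 ± 0.0583 (adjusted p = 0.0342) was the smallest of the 8 and lost its call when 1 of 6 particular arrays was left out, the highest adjusted p then being 0.0919. Mrpl33 lost its call without low fat replicate 5 (adjusted p = 0.0535), and Mrpl58 without high fat or low fat replicate 5 (up to 0.0575). With only the 12 arrays of day 3 in the fit, Mrpl12 and Mrpl18 kept their calls and the other 6 did not, with adjusted p of 0.0509 for Mrpl46 and higher for the rest.

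**Figure D2:**
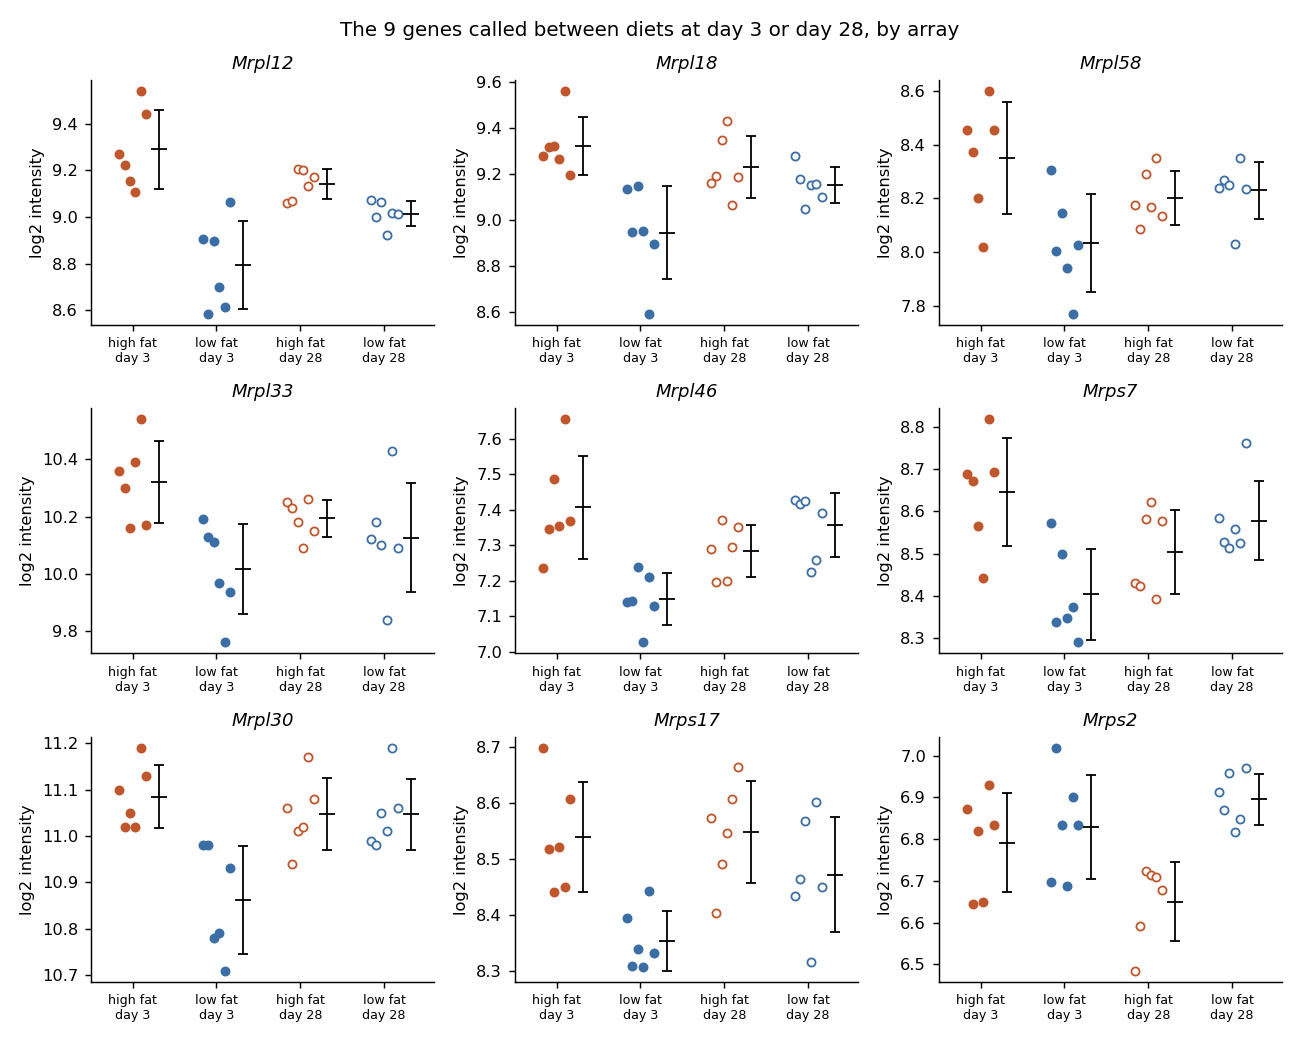
Log2 intensity of the 9 members called between diets, by array. Points are the 6 mice of each group (filled at day 3, open at day 28), and the bars give mean ± SD. For the 8 members called at day 3 the low fat day 3 group has the lowest mean of the 4, while for Mrps2 high fat day 28 does.

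The remaining 54 members did not pass at day 3. Those nearest the threshold were Mrps31 (0.164, adjusted p = 0.0871), Mrps18a (0.148, 0.0876), Mrps23 (0.205, 0.091) and Mrpl13 (0.238, 0.0997). Around the tunnel through which new proteins leave, next to the inner membrane, Mrpl45 changed by 0.126 (adjusted p = 0.466), Mrpl24 by 0.0643 (0.476) and Mrpl22 by 0.0105 (0.944). Mrps12, the counterpart of the bacterial decoding centre protein, changed by -0.0669 (0.559). Mrpl42, a mitochondria-specific protein with 11.76 to 11.97 in high fat and 11.69 to 11.83 in low fat mice, changed by 0.0806 (0.371), and the pseudogene Mrpl27-ps by 0.0944 (0.469). The lowest changes were those of Mrpl50 (-0.0775, adjusted p = 0.443), Mrpl51 (-0.0766), Mrps27 (-0.0725), Mrps12 and Mrpl37 (-0.0534), none of which was called. The range downward was therefore much shorter than the range upward, which ended with Mrpl12 at 0.495.

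Of the large subunit genes 6 of 39 rose at day 3, with a median change of 0.109, and of the small subunit genes 2 of 23 rose, with a median of 0.123. Over all tested genes 7.99% rose, the share to set beside each count of risen genes in this paragraph. The 3 members whose diet groups did not overlap, beside 3.5% of all genes that were higher without overlap, all carry large subunit names. Whether the subunits differ was not tested. The share above 0 was 82.1% in the large and 82.6% in the small subunit. Mrps30 and Mrps18a carry small subunit names but sit in the large subunit in the solved structures. With these moved and the pseudogene left out, the counts were 6 of 40 and 2 of 21 and the medians 0.11 and 0.123. Members with a bacterial counterpart had 6 of 35 risen and a median of 0.125, and mitochondria-specific members 2 of 26 and a median of 0.108.

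The mean log2 intensity over the 62 members shows the same pattern by array. It was 7.865 ± 0.0889 (SD, n = 6) in high fat day 3, ranging from 7.771 to 8.024, and 7.749 ± 0.062 in low fat day 3, ranging from 7.688 to 7.839. At day 28 it was 7.836 ± 0.0406 in high fat and 7.869 ± 0.0485 in low fat mice. The ranges of the diet groups overlapped at both days. The top array was high fat day 3 replicate 5, and without it the median change of the members at day 3 was 0.0854. The difference between the large and the small subunit means moved little, averaging 0.3695 ± 0.0299 in high fat day 3, 0.362 ± 0.0145 in low fat day 3, 0.3555 ± 0.025 in high fat day 28 and 0.3432 ± 0.0104 in low fat day 28. Only its movement between groups can be read, since its size depends on the probes.

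**Figure D3:**
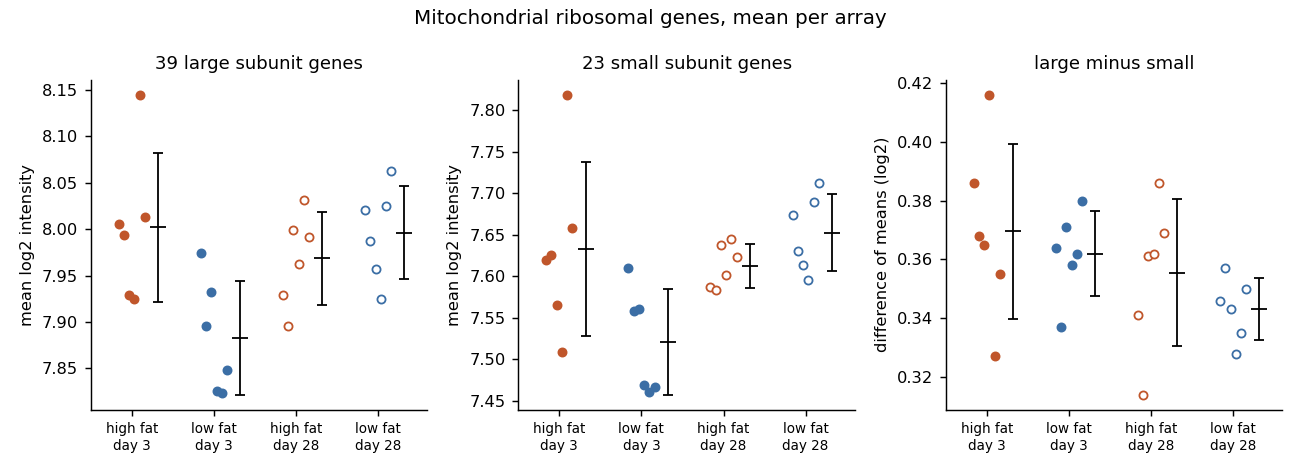
Mean log2 intensity of the tested members on each of the 24 arrays, for large and small subunit genes in the left and middle panels, by diet and day, with group mean ± SD. The right panel plots the large minus the small subunit mean of each array, and its groups overlap. Low fat day 3 is the lowest group in both subunits, at 7.883 (large) and 7.521 (small).

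At day 28, none of the 62 members rose and 1 fell, Mrps2, beside 5.35% of all tested genes that rose, 7.18% that fell and 12.5% called either way. Of all called genes 42.7% were higher, and 52.8% after quantile normalization. Mrps2 is the counterpart of a bacterial protein at the junction of head and body of the small subunit. Its log2 intensity was 6.485, 6.593, 6.723, 6.714, 6.709 and 6.677 in the high fat day 28 mice, against 6.912, 6.870, 6.958, 6.817, 6.848 and 6.970 in the low fat day 28 mice. Every high fat mouse lay below every low fat mouse, as in 4.56% of all genes. The change was -0.246 ± 0.0649 (95% interval -0.38 to -0.111, 0.844-fold, adjusted p = 0.0132), and it kept its call whichever array was left out. At day 3 Mrps2 had changed by -0.0368 ± 0.0649 (adjusted p = 0.746), and the difference between its diet effects did not pass (-0.209, adjusted p = 0.227).

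The median change of the 62 members at day 28 was -0.0249 against 0.00969 over all genes, and 23 of 62 (37.1%) were above 0, against 52.1% of all genes. Mrps6, a small subunit protein of bacterial type, had the lowest change of the members, below that of Mrps2, at -0.289 ± 0.0996, and did not pass (adjusted p = 0.0589), with 7.43 to 7.82 in high fat and 7.75 to 8.19 in low fat mice. It passed with a filter at log2 of 6, with array weights, with replicate number as a block, and when 1 of 5 particular arrays was left out. Mrps22 (-0.164), Mrps35 (-0.163) and Mrps12 (-0.144) followed. Those highest were Mrps23 (0.133, adjusted p = 0.328), Mrpl12 (0.126, 0.352), Mrpl20 (0.117), Mrps9 (0.112) and Mrps21 (0.0889). At an unadjusted p under 0.05 there were 3 members, all lower and all small subunit genes, beside 24.9% of all genes in either direction. The medians of the subunits were -0.0281 (large, 0 of 39 called) and -0.0231 (small, 1 of 23 called).

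The 8 members that rose at day 3 gave values between -0.0741 for Mrps7 and 0.126 for Mrpl12 at day 28. For Mrpl12 the day 28 groups were 9.06 to 9.20 in high fat and 8.92 to 9.07 in low fat mice, and the 95% interval of the change ran from -0.039 to 0.29. For Mrpl30 the change was -0.000601, with an interval of -0.12 to 0.119, and for Mrpl46 it was -0.0734, with an interval of -0.205 to 0.0582. These intervals do not exclude small changes in either direction.

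Whether the diet effect differed between the days was tested directly, as the effect at day 28 minus that at day 3. By limma, none of the 62 members passed, beside 1.38% of all tested genes, and 13 had an unadjusted p under 0.05, all below 0, beside 18.8% of all genes in either direction. Under the other analysis settings the count was 0, 1 or 3. The lowest adjusted p belonged to Mrpl46 (-0.333 ± 0.0899, adjusted p = 0.0596), followed by Mrps7 (-0.317 ± 0.0952, 0.0797) and Mrpl12 (-0.37 ± 0.112, 0.0843). As a description, 58 of 62 members were below 0, and the median was -0.131 against 0.000641 over all genes. It was -0.118 over the large and -0.146 over the small subunit genes. Mrpl9, Mrpl1, Mrps27 and Mrpl51 were the 4 members above 0, the highest at 0.0578.

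Within each diet, no member passed between day 28 and day 3. On the high fat diet, 0.552% of all genes were called, 5 members had an unadjusted p under 0.05 by limma (14.4% of all genes did), and the median of the members was -0.0282, with 25 of 62 above 0. On the low fat diet, 0.345% of all genes were called, and 22 members had an unadjusted p under 0.05, all of them higher, beside 9.77% of all genes that were higher at that threshold. The low fat median was 0.118, against 0.0102 over all genes, and 54 of 62 members were above 0. Under the other settings the count of called members was 0 on high fat and 0 to 2 on low fat.

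The lowest adjusted p on the low fat diet was 0.0585, shared by Mrpl40, a mitochondria-specific large subunit protein (0.28 ± 0.0659), and Mrps16, a small subunit protein of bacterial type (0.346 ± 0.0816). Mrpl40 had 8.03, 8.21 and 8.31 (lowest, median and highest log2 intensity) in low fat day 28 mice, against 7.77, 7.88 and 8.08 in low fat day 3 mice. Mrps16 had 9.49, 9.66 and 9.81 in low fat day 28 mice, against 9.13, 9.36 and 9.51 in low fat day 3 mice. Both overlapped narrowly. Mrpl55, Mrps11, Mrps6 and Mrpl24 did not overlap between the days, all 4 higher at day 28, beside 0.794% of all genes. For Mrps11 the gap was narrow, from 6.919 at day 3 to 6.922 at day 28. On high fat 1 member did not overlap between the days, Mrpl44, beside 56 of 5793 genes that were lower without overlap. Its highest day 28 value was 6.797 and its lowest day 3 value 6.821.

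This comparison shares the low fat day 3 mice with the diet comparison at day 3, so the values of both are set side by side without reading one as support for the other. Mrpl12 changed by 0.495 with diet at day 3 and by 0.22 with time on low fat, Mrpl18 by 0.379 and 0.207, Mrpl46 by 0.259 and 0.209, and Mrps7 by 0.243 and 0.175. On high fat, their changes with time were -0.149, -0.0928, -0.124 and -0.142. None of these changes with time passed, the lowest adjusted p being 0.119 for Mrpl46 on low fat.

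**Figure D4:**
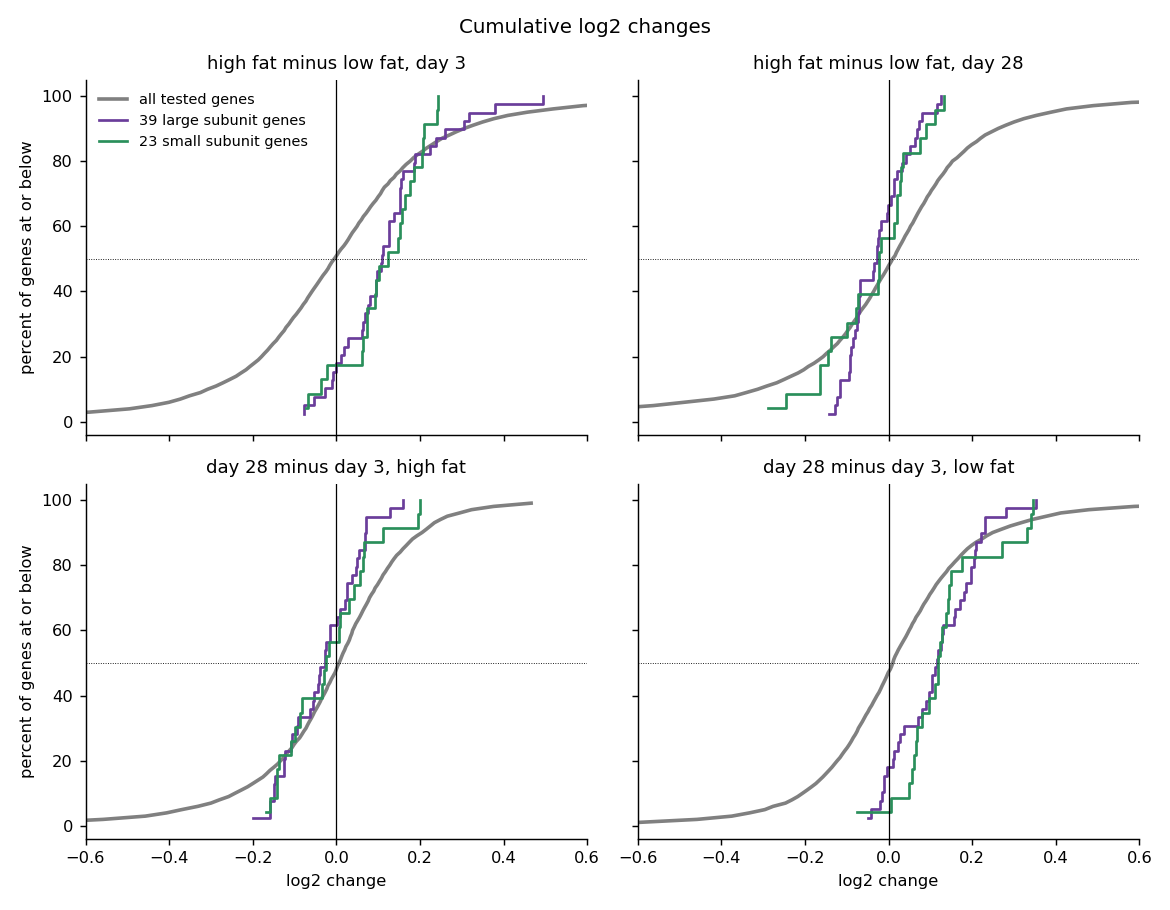
Cumulative share of genes by log2 change in the 2 diet and the 2 time comparisons, for all 5793 tested genes (grey), 39 large subunit genes (purple) and 23 small subunit genes (green). Both subunits lie right of the grey curve at its middle in the diet comparison at day 3 and in the low fat time comparison.

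Other parts of the mitochondrial translation system were counted for comparison. The shares over all tested genes were 7.99% risen and 6.87% fallen at day 3, and 5.35% risen and 7.18% fallen at day 28. Gadd45gip1 and Chchd1 encode mitochondrial ribosomal proteins of the large and small subunit under other symbols. At day 3 Gadd45gip1 rose by 0.22 ± 0.0648 (adjusted p = 0.0249), while Chchd1 changed by 0.23 ± 0.0786 (0.0507). Of the translation factors and their helpers, 1 of 10 rose, Slirp, a partner of Lrpprc in keeping mitochondrial mRNAs stable (0.345 ± 0.0766, adjusted p = 0.00399), and the initiation factor Mtif2 did not pass (0.277, 0.0632). None of 11 aminoacyl-tRNA synthetases and related genes was called, with 2 at an unadjusted p under 0.05 by limma, the nearest being Qrsl1, a subunit of the amidotransferase that makes glutaminyl-tRNA (0.264, 0.0509).

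Assembly factors did not share one direction at day 3. Of 21, the rRNA methyltransferase Mrm3 rose (0.425 ± 0.108, adjusted p = 0.0102), the GTPase Noa1 fell (-0.355 ± 0.115, 0.0401), and the median was -0.0249. Of 7 genes of mitochondrial DNA transcription and upkeep, Mterf2 rose (0.51 ± 0.112, adjusted p = 0.00369), the RNA polymerase Polrmt changed by -0.352 (0.0559), and the median was -0.229. At day 28 Mrm3 (0.338, adjusted p = 0.0415), the pseudouridine synthase Trub2 (0.261, 0.0272) and the arginyl-tRNA synthetase Rars2 (0.273, 0.0235) rose, and no translation factor or transcription gene of these lists was called.

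Outside mitochondrial translation, 24 genes had symbols that start with Rpl or Rps and a digit. This pattern takes in cytosolic ribosomal protein genes but also admits others, such as kinases of ribosomal proteins. Of these genes 5 of 16 tested rose at day 3, with a median of 0.185. Complex I genes rose in 12 of 33, with a median of 0.119. Both counts stand beside 7.99% of all tested genes that rose. At day 28 the counts were 0 higher and 1 lower of 16 (median 0.0299) and 3 higher of 33 (median 0.0739). Of all tested genes, 5.35% rose and 7.18% fell at that day. For complex I, into which products of the mitochondrial ribosome are built, 26 of 33 genes were above 0 at day 28, beside the 23 of 62 members. The difference between these lists was not tested.

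The diet effects on the members stood beside the shifts in slow fibre markers given above, in other cells' markers and in RNA quality, whose part in them was not tested. The summed endothelial markers ran from 877.2 to 1027 in high fat day 3 against 657.9 to 801.1 in low fat day 3, and from 847.4 to 1110 in high fat day 28 against 703.5 to 859.1 in low fat day 28. The summed adipocyte markers ran from 3222 to 9977 in high fat day 3 against 3798 to 11340 in low fat day 3, and from 2778 to 4234 in high fat day 28 against 7314 to 14340 in low fat day 28. The macrophage sums were 937.5 to 2050 in high fat day 3 against 1125 to 2753 in low fat day 3, and 841.6 to 1397 in high fat day 28 against 1346 to 2950 in low fat day 28. The log2 ratio of 3′ to 5′ beta-actin signal, a measure of RNA integrity, ran from 0.0966 to 0.368 in high fat day 3 and from -0.0367 to 0.226 in low fat day 3. It ran from -0.174 to 0.248 in high fat day 28 and from -0.189 to 0.363 in low fat day 28. Without the 4 arrays where it was highest, 8 members rose at day 3 (7 of the same, with Mrps23 in place of Mrps17), and Mrps2 still fell at day 28.

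RefSeq gave a promoter for 57 of the 64 members, 58 windows of 250 bases, set here beside all 32851 windows of that length. The latter were neither limited to tested genes nor matched for base content. The NRF1 palindrome with 1 central base free was found in 9 of the 58 (15.5%, against 3.7% of all). This form was added after a promoter had been read, so its share is a description only. The strict palindrome, which the first form includes, was found in 2 (3.4%, against 0.8%). CCGGAAG was found in 15 (25.9%, against 6.9%), AAGATGG in 5 (8.6%, against 4.5%), GGGCGG in 26 (44.8%, against 32.7%) and TCAAGGTCA in none (against 0.4%). Both strands were searched, and these forms can lie next to or over each other. The median change at day 3 was 0.111 in the 9 tested members with the freer NRF1 form and 0.108 in the 46 without it. With the strict palindrome it was 0.0236 in 2 tested members, neither of them called, and 0.111 in the 53 without it. It was 0.123 with and 0.105 without the ETS form, 0.109 and 0.109 for YY1, and 0.101 and 0.126 for the GC box. These differences were not tested.

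Mrpl46 and Mrps11 were the 1 pair of members found to start on opposite strands within 1000 bases of each other, with 42 bases between their starts, so the Mrpl46 window printed above runs into Mrps11. At day 3 Mrpl46 changed by 0.259 (adjusted p = 0.008) and Mrps11 by 0.152 (0.462), and at day 28 they changed by -0.0734 and -0.0775. Mrps11 was among the most variable members, with log2 intensities of 6.33 to 7.23 in high fat day 3 and 6.34 to 6.92 in low fat day 3 mice.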

How the data were processed

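Total RNA from quadriceps was hybridised to Affymetrix mouse genome 430 2.0 arrays, 1 per mouse. The deposited values are 1 linear intensity per probe set and array, computed by the authors with GCRMA per the submitters' processing notes (no version named). The sources used here name neither the probe definition nor the genome build. Intensities ran from 0.881 to 20520, with array medians of 6.56 to 6.9, and any 2 arrays correlated at 0.9777 to 0.9952.

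From these, log2 was taken with no offset. Of 16361 probe sets, 14771 have 1 symbol, and the one of highest mean was kept per gene. Genes above log2 4 on at least 6 arrays were tested with limma 3.58.1 in R 4.3.3 (lmFit, eBayes), with 4 group means, 20 residual degrees of freedom and two-sided tests for 5 comparisons. The fit was tested on simulated data. Of 100 genes changed by 0.25, 22 were recovered at day 3 and 18 at day 28. Of 100 changed by 0.5, 65 and 63 were recovered. The simulation held 5793 genes and was not run for the members alone. Their median SE at day 3 was 0.0766, against 0.107 over all tested genes, so these shares are not the recovery of members. The number of arrays limits the precision.

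The members and lists were chosen with earlier results of these data known. Genes named are all called members, the 5 highest and 5 lowest per diet comparison, those at the filter, some by their place in the ribosome, and, of the related lists, called genes and the 2 of largest change. Names added after values were seen are Mrps31, Mrpl13, Mrpl40, Mrpl34, Mrpl55, Mrps11, Mrpl44, Mrps5, Mrpl9 and Mrpl1. The N form of the NRF1 motif was also added after a promoter had been read. Alternatives covered the arrays in the fit, normalization, centring, filters, offset, array weights, variance prior, replicate block, probe set choice, RNA quality, threshold and each array left out.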

Additional observations from a re-analysis of the deposited data

Results flagged for a closer look

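Dixon's ratio was applied to each group of 6 mice for 33 members, and 9 of 132 groups had a mouse beyond the critical value of 0.625, where chance gives about 1 in 20. High fat day 3 replicate 5 held 3 of these, as the highest value of Mrpl18 (9.561), Mrps22 (8.943) and Mrps25 (3.338), the last of a gene below the filter. High fat day 3 replicate 4 held the lowest Mrps23 value (7.71). Low fat day 3 replicate 5 held the lowest Mrpl22 value (8.633). In low fat day 28, replicate 5 held the highest Mrpl30 (11.19) and the lowest Mrps23 (7.709), replicate 6 the highest Mrps7 (8.761) and replicate 4 the lowest Mrpl58 (8.032). Mrpl18, Mrpl30 and Mrps7 kept their day 3 calls whichever array was left out.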

How the results depend on the processing

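The median change of the members kept its sign in all 5 comparisons under each setting run, and no called value of a named member reversed. Of 3311 recomputed values of named members, 17 lost and 24 gained a call, and 40 without a call changed sign. With only the arrays of day 3 in the fit, the count at day 3 was 2 (Mrpl12 and Mrpl18). At day 28 the count was 2 (Mrps2 and Mrps6) with a filter at log2 of 6, array weights, the replicate block or an adjusted p under 0.1. The difference between days then gave 1 (Mrpl46) with the filter, the weights and the block, and 3 (Mrps7, Mrpl12 and Mrpl46) at an adjusted p under 0.1. Day 28 minus day 3 on low fat gave 2 with quantile normalization, the filter or an adjusted p under 0.1 (Mrpl40 and Mrps16), 2 with array weights (Mrps16 and Mrpl34) and 1 with a trended, robust prior (Mrps16). The cause was not tested. Large minus small subunit medians, -0.005 at day 28, moved to -0.0345 with quantile normalization, -0.0381 with array weights and -0.0422 without the 4 beta-actin arrays, and for the difference between days from 0.0281 to 0.0538 with array weights.

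With 1 array left out at a time, the count at day 3 ran from 7 to 10 (10 without high fat day 3 replicate 4) and the large minus small value from -0.0337 to 0.00771. The member median at day 3 ran from 0.0854 to 0.135. At day 28 the count ran from 1 to 2 (2 without high fat day 3 or day 28 replicate 5, or low fat day 28 replicate 1, 2 or 3), the median from -0.0502 to -0.0169 and large minus small from -0.0619 to -0.00144. For the difference between days these were 0 to 1 (Mrps7 without high fat day 3 replicate 4, Mrpl46 without low fat day 28 replicate 4), -0.159 to -0.114 and 0.00537 to 0.0512. On high fat over time they were 0 to 0, -0.053 to -0.0074 and -0.0249 to 0.00398, and on low fat 0 to 2 (2 without high fat day 3 replicate 5, 1 without high fat day 3 replicate 4 or low fat day 28 replicate 1), 0.0969 to 0.135 and -0.0213 to 0.0211.

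Replicate numbers share no animal between groups. Same-numbered mice correlated at -0.0512 to 0.237 at day 3 and at -0.0819 to 0.537 at day 28, over 0.1 in 3 of 6 pairs each, so the numbers were not taken as pairs. The replicate block left the day 3 count at 8, and added Mrps6 at day 28 and Mrpl46 for the difference between days. Over all tested genes it raised the calls for the difference between days from 80 to 176. Quantile normalization also moved the share of higher among all called genes at day 28, from 42.7% to 52.8%, and for the difference between days from 48.8% to 59.2%. With 6 mice a group the median SE of a member's change at day 3 was 0.0766, and values of dim members such as Mrpl41 and Mrps25 depend on the background correction.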

Other observations

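The 9 probe sets that name a mitochondrial ribosomal gene among several symbols were fitted with all 6323 probe sets that passed the filter, whatever their annotation. Of these, 8 were tested. At day 3, 2 were higher and none lower, with a median change of 0.0921 and a range of -0.0216 to 0.337, and 7 were above 0. At day 28 none was called, the median was 0.0247 and 5 were above 0. Which of the genes named gives their signal cannot be told apart, so they are given apart from the members.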
